A study of Mus musculus with 2 samples.

Results

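The 41 genes described here encode the machinery that loads, fires and copies at DNA replication origins, and were taken as the rows of the gene list whose symbol equals one of a fixed set of names; all 41 were found among the 32285 genes listed. They comprise the MCM helicase (6 genes), the origin recognition complex (6), licensing factors and their inhibitor (3), factors that activate the helicase (6), DNA polymerases alpha with primase (4), epsilon (2) and delta (3), the sliding clamp and its loader (6), flap removal and ligation (2), and replication protein A (3). The data come from tumours of RM-1, a mouse prostate cancer cell line, grown under the skin of C57BL/6 mice (genotype WT in both groups). Tumours were taken on treatment day 10, from the vehicle group or from the group given RP-6306; this drug inhibits PKMYT1, a kinase that restrains CDK1 before mitosis. CD45+ leukocytes were sorted and recombined with tumour cells at 3:1, and 1 droplet 3' library was made per group, so that leukocyte and tumour cell numbers were set by the mix. A pair of mice is mentioned for the study, but not which mouse each library came from. Dose and the age of the mice were not given in the sources used here. With 1 library per group no test between treatments was possible: every difference below is between 2 libraries, and every 95% interval covers counting error only. Levels are CPM, unique molecular identifiers (UMIs) of a gene per 1000000 UMIs of the cells summed.

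Before S phase the origin recognition complex, with Cdc6 and Cdt1, loads the MCM helicase onto origins, which is called licensing; geminin (Gmnn) binds Cdt1 and prevents a further round. Cdc45, GINS and Mcm10 then turn the loaded helicase into a moving one, polymerase alpha-primase lays primers, and polymerases epsilon and delta extend the strands, held by PCNA, which the RFC complex loads. Fen1 and Lig1 finish the lagging strand fragments, and replication protein A covers single-stranded DNA. Many of these genes are transcribed under control of E2F factors as cells enter S phase, while several origin recognition subunits are present throughout the cycle.

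The sequences upstream of these genes were scanned because 39 of the 41 genes were at least 25% higher in S-like than in G1-like tumour cells of each library, as given further on. RefSeq promoters of build GRCm38.p6 (250 bases before and 50 after the start) matched 33 of the 41 genes. An E2F-type word, TTTCGCGC, TTTGGCGC, TTTCCCGC or TTTGCCGC, on either strand, was found for 15 of these (45.5%), namely Mcm3, Mcm5, Mcm6, Mcm7, Orc1, Orc3, Cdc6, Cdt1, Gins3, Pola1, Pole2, Pold1, Pold3, Rfc3 and Lig1, against 2.60% of all 27025 genes with a promoter of that length. The word CCAAT was found for 21 (63.6%), against 41.1% of all. Windows of 170 bases that end just before the start and overlap no annotated exon are printed 5′ to 3′ on the gene's strand, with E2F-type words in capitals, to show how the words are arranged: Mcm5 at chr8:75109339-75109508 (+ strand), Mcm6 at chr1:128359706-128359875 (- strand), Pola1 at chrX:93632156-93632325 (- strand) and Mcm10 at chr2:5012792-5012961 (- strand).
Mcm5: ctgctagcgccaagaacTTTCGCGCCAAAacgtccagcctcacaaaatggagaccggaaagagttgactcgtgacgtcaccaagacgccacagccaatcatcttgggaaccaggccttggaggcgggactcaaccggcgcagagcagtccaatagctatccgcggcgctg
Mcm6: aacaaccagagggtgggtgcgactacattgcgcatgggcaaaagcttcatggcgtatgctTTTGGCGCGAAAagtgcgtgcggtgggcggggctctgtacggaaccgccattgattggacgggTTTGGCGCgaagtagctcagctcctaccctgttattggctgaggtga
Pola1: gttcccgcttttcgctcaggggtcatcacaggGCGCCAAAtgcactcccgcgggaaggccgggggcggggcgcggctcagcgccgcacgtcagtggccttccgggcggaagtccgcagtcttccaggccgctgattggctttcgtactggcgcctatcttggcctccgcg
Mcm10: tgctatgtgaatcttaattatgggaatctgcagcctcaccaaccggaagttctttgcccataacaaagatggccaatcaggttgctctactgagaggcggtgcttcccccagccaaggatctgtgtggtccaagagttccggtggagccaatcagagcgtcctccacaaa
In Mcm5 a pair of words on opposite strands overlap, 153 and 149 bases before the RefSeq start. Mcm6 has such an overlapping pair at 110 and 106 bases and a further word at 47 bases, and Pola1 has 1 word at 138 bases. For Mcm5 and Mcm6 the bases checked after that start were not found in a GENCODE transcript of the gene. Their GENCODE genes begin further downstream, at chr8:75109569 and chr1:128359664, so distances to those starts are longer. For Pola1 and Mcm10 the bases were found. Mcm10, shown because its ratio of S-like over G1-like tumour cells was the highest of the 41 in each library, has no such word in its window. A match describes letters only, and occupancy by a factor was not measured.

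After filtering, 16039 vehicle and 14843 RP-6306 cells remained, with medians of 3105 and 2839 UMIs, and 366 cell barcodes occurred in both libraries; whether any mark the same droplets was not tested. Tumour-like cells numbered 3177 and 3390; of their 8 epithelial markers, which summed to 1158 and 1257 CPM, the keratin genes Krt8, Krt18 and Krt19 and Lgals7 gave nearly all UMIs, Epcam few, Krt7 and Cdh1 were close to 0 and Krt5 was at 0. Their median depths were 26282 and 31264 UMIs. The drug acts on the PKMYT1 protein, so no transcript checks the treatment labels. All 41 genes passed the filter of 20 UMIs over both libraries in tumour-like cells.

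In tumour-like cells each of the 41 replication genes was higher in the RP-6306 library, as were 9159 of all 17444 tested genes. Summed over the genes the level was 1832 CPM (1823 to 1841) in vehicle and 2294 CPM (2285 to 2303) in RP-6306 cells. The differences were small: 27 genes were at least 25% higher and 0 at least 20% lower, where 6.76% and 7.14% of all 17444 tested genes were. These counts use ratios of CPM + 1, on which Fen1 alone passed 1.5-fold, against 0.98% of all tested genes; Mcm5 was just under that mark, and just over it (1.51-fold) without the added 1. The median log2 ratio of CPM + 1 was 0.35 for the 41 genes and 0.01 for all tested genes, and the counting interval, computed without the added 1, lay above 0 for 40 of the 41, against 30.5% of all tested genes; the exception was Pold1. In such sums more cells in S phase and more RNA of these genes per cell cannot be told apart, so the cells are also compared state by state.

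**Figure D1:**
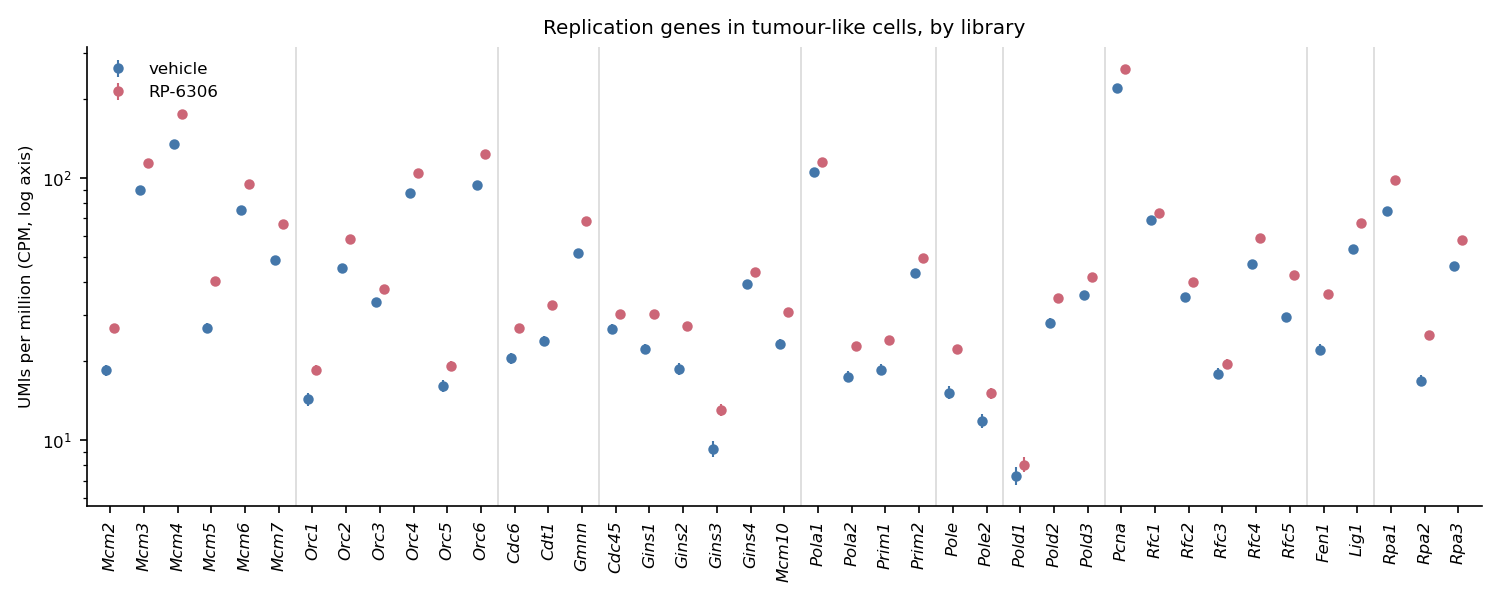
Level of each replication gene in tumour-like cells, in CPM on a log axis, for the vehicle (blue) and RP-6306 (red) library; bars are exact Poisson 95% intervals and grey lines separate the roles. Each red point lies above its blue point, from Rfc1 with a log2 ratio of 0.09 to Fen1 with 0.68.

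The MCM genes, whose products form the ring-shaped hexamer that unwinds DNA, were all at least 25% higher in RP-6306 tumour-like cells, with a median log2 ratio of 0.41. Of all 17444 tested genes 6.76% were that much higher, which is the background for each role below. Mcm5 differed most within the ring, with 26.8 CPM in vehicle and 40.5 CPM in RP-6306 cells, a log2 ratio of 0.58 (0.52 to 0.67). Mcm2 stood at 18.4 CPM in vehicle and 26.7 CPM in RP-6306 cells, a log2 ratio of 0.51 (0.44 to 0.62). Mcm4 measured 135 and 176 CPM (log2 ratio 0.38) and Mcm7 48.7 and 66.6 CPM (log2 ratio 0.45) in vehicle and RP-6306 cells. Mcm3, with 89.8 and 114 CPM (log2 ratio 0.34), and Mcm6, with 75.1 and 95.1 CPM (log2 ratio 0.34), differed least and lay close to the 25% mark.

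Among the origin recognition genes, whose products mark origins, the median log2 ratio was 0.30 and 3 of 6 were at least 25% higher. Orc6 was the highest of them in ratio, with 93.7 CPM in vehicle and 123 CPM in RP-6306 cells, a log2 ratio of 0.39 (0.36 to 0.44). Orc1, the subunit whose abundance is cell cycle controlled, measured 14.3 and 18.6 CPM (log2 ratio 0.35), and Orc2 45.2 and 58.4 CPM (log2 ratio 0.36). The lowest ratio was that of Orc3, at 33.7 CPM in vehicle and 37.5 CPM in RP-6306 cells, a log2 ratio of 0.15 (0.09 to 0.23). Orc4 and Orc5 lay between, at 0.25 and 0.24.

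The licensing genes were alike in ratio. Cdt1, which brings the MCM ring to the origin, gave 23.8 CPM in vehicle and 32.7 CPM in RP-6306 cells, a log2 ratio of 0.44 (0.38 to 0.54). Its inhibitor Gmnn gave 51.8 CPM in vehicle and 68.4 CPM in RP-6306 cells, a log2 ratio of 0.39 (0.35 to 0.45). Cdc6, the ATPase that works with the origin complex, gave 20.5 CPM in vehicle and 26.7 CPM in RP-6306 cells, a log2 ratio of 0.37 (0.30 to 0.47). All 3 passed 25%, and their intervals overlapped one another.

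Of the 6 genes that activate the helicase, 4 passed 25%. Gins2 was highest in log2 ratio (18.7 and 27.1 CPM, 0.52), followed by Gins3 (9.24 and 13.03 CPM, 0.45), Gins1 (22.3 and 30.2 CPM, 0.42) and Mcm10 (23.2 and 30.7 CPM, 0.39). Cdc45, which joins GINS and MCM in the moving helicase, gave 26.5 and 30.3 CPM (log2 ratio 0.19). Gins4 gave 39.2 CPM in vehicle and 43.5 CPM in RP-6306 cells, a log2 ratio of 0.15 (0.09 to 0.22). The genes of the GINS complex thus spanned log2 ratios from 0.15 to 0.52, and the intervals of Gins4 and Gins2 did not overlap.

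The polymerases differed by subunit. In polymerase alpha-primase the second subunit Pola2 gave 17.4 and 22.8 CPM (log2 ratio 0.37) and the primase subunits Prim1 and Prim2 had log2 ratios of 0.36 and 0.20, while the catalytic Pola1 was lowest, with 105 CPM in vehicle and 115 CPM in RP-6306 cells, a log2 ratio of 0.13 (0.09 to 0.17). In polymerase epsilon, the leading strand enzyme, catalytic Pole gave 15.2 CPM in vehicle and 22.1 CPM in RP-6306 cells, a log2 ratio of 0.52 (0.45 to 0.64) and Pole2 11.8 and 15.05 CPM (log2 ratio 0.32). The 3 polymerase delta genes all stayed under 25%: Pold2 gave 28.01 and 34.7 CPM (log2 ratio 0.30), Pold3 35.8 and 41.7 CPM (log2 ratio 0.21) and catalytic Pold1 7.28 CPM in vehicle and 8.05 CPM in RP-6306 cells, a log2 ratio of 0.13 (-0.0029 to 0.29).

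Pcna, the sliding clamp, gave 219 CPM in vehicle and 259.5 CPM in RP-6306 cells, a log2 ratio of 0.24 (0.22 to 0.27). Among the clamp loader genes Rfc5 had the highest log2 ratio (29.5 and 42.7 CPM, 0.52), Rfc4 next (46.9 and 59.1 CPM, 0.33), and Rfc2, Rfc3 and Rfc1 lay at 0.19, 0.12 and 0.09. Rfc1, the large loader subunit, had the lowest ratio of all 41 genes, with 69.00 CPM in vehicle and 73.3 CPM in RP-6306 cells, a log2 ratio of 0.09 (0.04 to 0.14). At the other end Fen1, the flap nuclease of the lagging strand (chr19:10199132-10204169, - strand, GENCODE annotation of GRCm38), gave 22.1 CPM in vehicle and 36.2 CPM in RP-6306 cells, a log2 ratio of 0.68 (0.63 to 0.79); Tmem258 and a predicted gene overlap it on the other strand. Lig1, the ligase that seals the fragments, gave 53.4 and 67.4 CPM (log2 ratio 0.33). For replication protein A the ratio was 0.54 (0.48 to 0.66) for Rpa2 (16.8 and 25.03 CPM), 0.39 for Rpa1 and 0.32 (0.27 to 0.39) for Rpa3 (45.9 and 57.7 CPM). No single cell held more than 1.39% of a gene's UMIs in RP-6306 tumour-like cells, the highest share being that of Prim2.

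Other genes of replication, outside the 41, were on a fixed list of 42. Of these, 38 were higher in RP-6306 tumour-like cells, 21 by at least 25% and 0 lower by 20% or more, with a median log2 ratio of 0.32. Of all 17444 tested genes 9159 were higher, 6.76% by at least 25%, and 7.14% were lower by 20% or more, with a median of 0.01. The 4 with the highest ratios were Dna2 (6.73 and 11.9 CPM, 0.74), a nuclease of lagging strand processing, the histone chaperone genes Asf1b (15.3 and 24.2 CPM, 0.63) and Chaf1b (13.5 and 21.5 CPM, 0.63), and Ticrr (16.9 and 26.2 CPM, 0.60), needed for origin firing. The 4 lowest, all below 0, were Poli (9.39 and 8.40 CPM, -0.14) and Polk (28.5 and 27.7 CPM, -0.04), translesion polymerases, Rnaseh2c (53.5 and 50.7 CPM, -0.08), a subunit of RNase H2, and Pold4 (83.2 and 80.2 CPM, -0.05), the small subunit of polymerase delta.

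The tumour-like cells were split into states by 30 S phase genes and 54 G2/M genes that include none of the 41, after thinning each cell to 2000 UMIs. S-like cells made up 10.3% (9.22 to 11.4) of 3168 vehicle and 14.7% (13.5 to 15.9) of 3368 RP-6306 cells, G2/M-like cells 26.7% (25.2 to 28.3) and 37.8% (36.2 to 39.5), and G1-like cells, those with neither score above 0, 63.04% (61.3 to 64.7) and 47.5% (45.8 to 49.2). The states are cuts of continuous scores, and of the S-like cells 113 and 148 lay within 0.05 of a cut. Their names are those of the gene lists only. Median UMIs of replication histones, transcripts of S phase, were 2 in S-like and 3 in G2/M-like thinned cells of each library. The G2/M-like state can therefore hold cells in S phase. Median depths also differed, at 23480 and 25241 UMIs in G1-like, 30556 and 35996 in S-like, and 31604 and 36648 in G2/M-like cells.

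The replication genes followed these states in both libraries. Their summed level was 1115 and 1295 CPM in G1-like, 3637 and 3831 in S-like, and 2465 and 2621 in G2/M-like cells of the vehicle and RP-6306 library. In each library 39 of the 41 were at least 25% higher in S-like than in G1-like cells, where 16.4% (vehicle) and 16.8% (RP-6306) of all tested genes were. At least 2-fold higher were 35 and 33 genes (background 3.3% and 3.5%). The median log2 ratio was 1.79 in vehicle and 1.62 in RP-6306 cells. In G2/M-like over G1-like cells it was 1.09 and 1.01, with 39 and 38 genes past 25% (background 14.2% and 14.1%). In S-like over G2/M-like cells 30 and 27 genes passed 25% (background 13.5% and 9.95%). The state lists and the 41 genes were read in the same cells, so these ratios describe how the genes go with other cell cycle genes.

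The genes differed widely in how closely they followed the cycle. Mcm10, which helps start the fork, was at 3.15 and 3.41 CPM in G1-like and 67.4 and 61.1 CPM in S-like cells of the vehicle and RP-6306 library, log2 ratios of 4.04 and 3.82. Cdc6 was at 8.40 and 7.74 CPM in G1-like, 69.9 and 80.9 CPM in S-like and 23.9 and 23.6 CPM in G2/M-like cells; the log2 ratios of S-like over G1-like cells were 2.92 and 3.23. Pole (3.02 and 2.73), Prim1 (2.76 and 2.58) and Mcm5 (2.66 and 2.45) completed the 5 highest log2 ratios of S-like over G1-like cells in each library. At the other end Orc4 was flat, with 87.9 and 104 CPM in G1-like, 84.7 and 102 CPM in S-like and 87.2 and 106 CPM in G2/M-like cells, and Orc3 nearly so, with 33.5 and 37.4 CPM, 37.9 and 40.6 CPM and 32.4 and 36.5 CPM. Orc5 (0.42 and 0.61) and Orc2 (0.87 and 0.95) were also low, whereas Orc1 (1.85 and 1.82) and Orc6 (1.40 and 1.29) followed S phase. The state with the highest level was the same in both libraries for 39 of 41 genes: S-like for 37, and G2/M-like for the loader gene Rfc4 (80.8 and 81.1 CPM in S-like against 82.2 and 83.9 CPM in G2/M-like cells, nearly equal) and for Rpa3. Orc4 and Rfc5 were highest in different states in the 2 libraries.

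**Figure D2:**
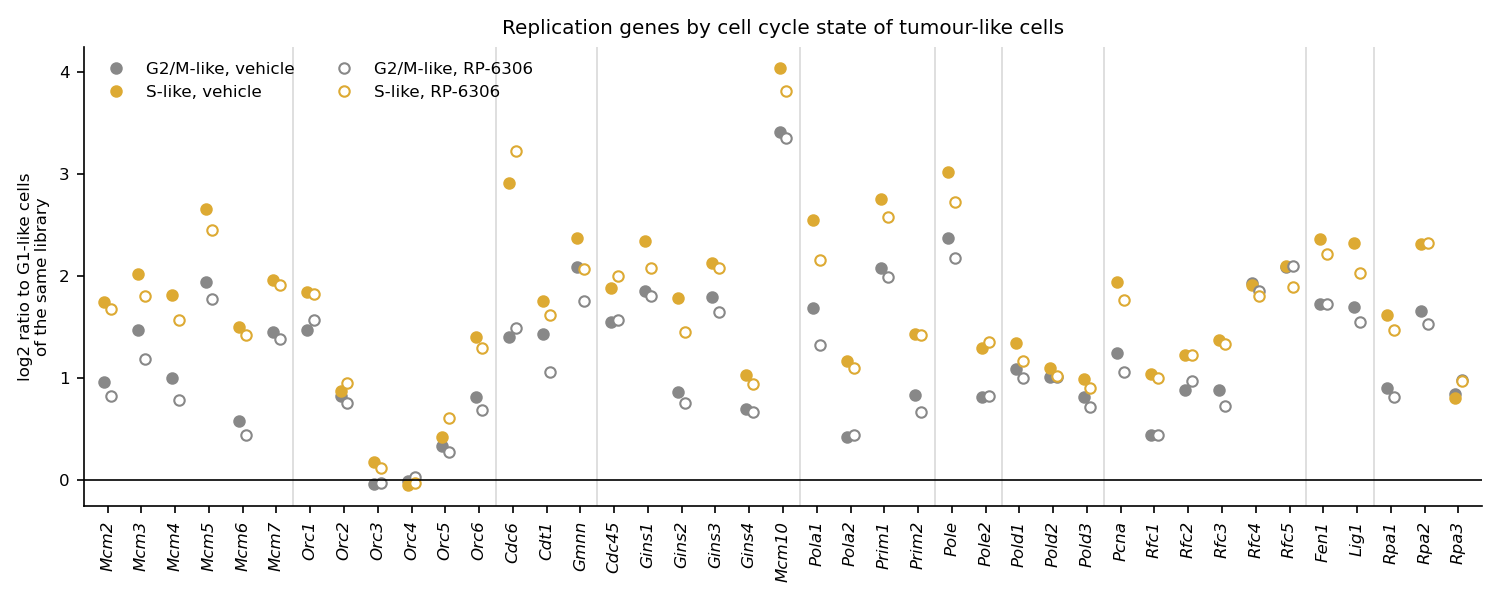
Log2 ratio of each replication gene in S-like (yellow) and G2/M-like (grey) over G1-like tumour-like cells of the same library, filled for vehicle and open for RP-6306. Mcm10 reaches 4.04 in vehicle S-like cells, Orc3 and Orc4 lie near 0, and filled and open points of a gene lie close together.

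The printed promoters can be set beside these ratios. Over the 15 genes with an E2F-type word the median log2 ratio of S-like over G1-like cells was 1.85 in vehicle and 1.80 in RP-6306 cells, and over the matched genes without one it was 1.68 and 1.58. Mcm10, with the highest ratio, is among the latter, and Orc3, with a ratio near 0 and a word 41 bases before its start, is among the former.

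Shares of cells with a UMI at a common depth of 2000 UMIs are given for Mcm5 and Mcm10. Mcm5 was seen in 13.2% of vehicle and 15.8% of RP-6306 S-like cells, and in 1.40% and 2.50% of G1-like cells. Mcm10 was seen in 10.5% and 11.3% of S-like and 0.651% and 0.688% of G1-like cells. In B-like cells the shares were 2.07% and 2.12% for Mcm5 and 0.706% and 0.257% for Mcm10. The G1-like shares were below these B-like shares in vehicle cells and somewhat above them in RP-6306 cells. B-like cells give no free RNA baseline for Mcm5. Its level there was 10.7 and 11.5 CPM, against 2.60 and 1.99 CPM estimated as free tumour RNA. For Mcm10 it was 3.26 and 1.40 CPM, against 2.24 and 1.51 CPM. Median depths before thinning were 2159 and 1930 UMIs in B-like cells, of which 1352 and 1901 had too few UMIs and were left out, as were 9 and 22 tumour-like cells. Unthinned, Mcm5 was seen in 35.8% and 50.9% of all tumour-like cells. Shares did not follow CPM for each gene: Gins4 was seen in 8.0% and 9.11% of S-like and in 9.81% and 10.4% of G2/M-like cells, although its CPM was higher in S-like cells, and no order is read from such shares.

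Within a state the 2 libraries were closer than over all tumour-like cells. In G1-like cells 9 of the 41 genes were at least 25% higher in RP-6306 (background 5.74%), with a median log2 ratio of 0.21. In S-like cells there were 3 (background 10.6%), with a median of 0.10, and in G2/M-like cells 2 (background 6.44%), with a median of 0.13; in these 2 states the share of the 41 past 25% was no higher than that of all genes. Counting intervals gave another picture, since they lay above 0 for 28 genes in G1-like (background 25.9%), 16 in S-like (19.9%) and 20 in G2/M-like cells (26.2%), all shares above the background, and below 0 for 0, 2 and 1 (17.9%, 15.1% and 17.2%). With both libraries weighted to the same mix of states, 35 of 41 genes were still higher in RP-6306. Of all 17444 tested genes, 9491 were. Of the 41, 2 passed 25% (background 3.88%) and the median log2 ratio was 0.15, against 0.02 for all genes. The 2 were Fen1 (0.40) and Gins2 (0.34); Mcm2 followed at 0.32.

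**Figure D3:**
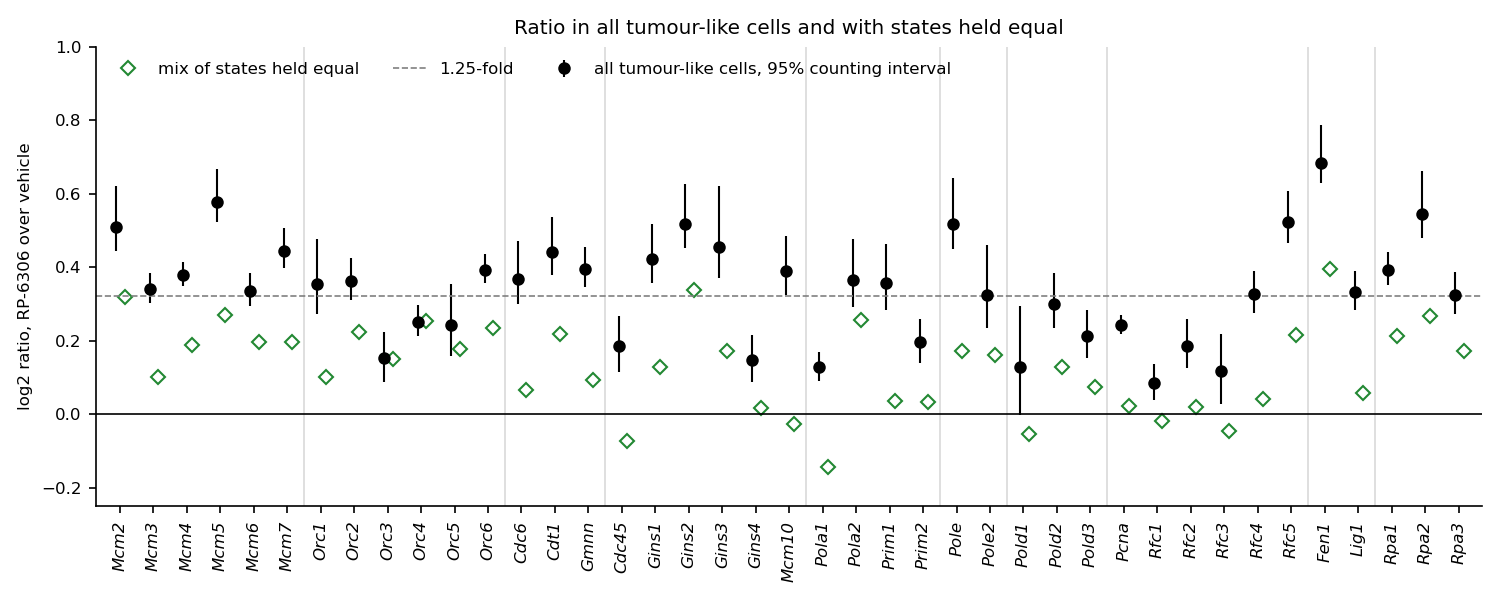
Log2 ratio of RP-6306 over vehicle for each replication gene in all tumour-like cells (black, with 95% counting intervals) and with the mix of states held equal (green diamonds); the dashed line marks 25% higher. With equal states most diamonds drop below the dashed line, Fen1 stays at 0.40 and Pola1 lies below 0, at -0.14.

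Roles parted when states were compared one by one. Among all tested genes, 8651 of 15726 were higher in RP-6306 in G1-like, 7228 of 13370 in S-like and 8551 of 15163 in G2/M-like cells. The 6 MCM genes were higher in RP-6306 in each of the 3 states, with medians of 0.32 in G1-like, 0.20 in S-like and 0.15 in G2/M-like cells, and so were all 6 origin recognition genes (0.20, 0.23 and 0.17) and all 3 replication protein A genes (0.29, 0.25 and 0.20). The clamp and loader genes had medians near 0 (0.07, -0.01 and 0.01), but they did not all do the same: Rfc5 was at 0.25 (0.10 to 0.44) in G1-like and 0.27 (0.18 to 0.36) in G2/M-like cells, and Pcna at 0.16 (0.11 to 0.21) in G1-like cells. Fen1 measured 9.48 and 13.2 CPM in G1-like, 53.1 and 65.01 CPM in S-like and 33.6 and 46.02 CPM in G2/M-like cells, higher in RP-6306 in each. Pola1 went the other way once cycling: 274 and 231 CPM in S-like cells, a log2 ratio of -0.24 (-0.31 to -0.17), and 149.8 and 129 CPM in G2/M-like cells, -0.21 (-0.27 to -0.16), but 45.9 and 51.1 CPM in G1-like cells, 0.15 (0.07 to 0.24).

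A second grading used UMIs of replication histones, whose transcripts accumulate in S phase. Among 2000 UMIs per cell, cells with 0 histone UMIs had summed replication gene levels of 1444 and 1843 CPM, and those with 1 to 4 had 1593 and 2125. Cells with 5 to 14 had 3077 and 3043, and those with 15 or more had 3514 and 3394. RP-6306 cells were thus higher in the grades with few or no histone UMIs and not in the grades with many. Those low grades also differed in state: 12.9% of vehicle and 21.6% of RP-6306 cells without histone UMIs were G2/M-like. Of the cells with 5 to 14 histone UMIs, 72.7% and 76.3% were G2/M-like and 23.8% and 20.4% S-like. Cells of that grade thus mostly carried the G2/M-like name, so the 2 gradings do not separate S phase alike. Holding the histone grades equal left 12 genes past 25% and a median log2 ratio of 0.27. No share of all genes is given for this setting, so the count is not read against a background. This grading was chosen after seeing the data.

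The tumour-like cells came from 3 clusters, and the difference between libraries was uneven among them. Cluster 6, led by Cdca7, Lgals7 and Krt18, had 24 genes at least 25% higher in RP-6306 (background 7.89%) and a median log2 ratio of 0.36. Cluster 3, led by Cryab, Tnc and Serpinb2, had 3 (background 7.03%) and 0.12, and cluster 8, led by histone genes, Top2a and Mki67, had 1 (background 6.47%) and 0.05. The clusters held 1553 and 937, 854 and 1343, and 770 and 1110 cells for clusters 3, 6 and 8, and their summed replication gene levels were 1192 and 1323, 1737 and 2234, and 2864 and 2905 CPM. The G2/M genes of the state lists summed to 1442 CPM in vehicle and 1476 CPM in RP-6306 cells of cluster 3. In cluster 6 they summed to 3203 and 4098 CPM, and in cluster 8 to 11068 and 11012 CPM. Cluster 6, with the most genes past 25%, was thus also the one whose G2/M gene level differed most in ratio. The part of cycling cells in its replication gene difference was not tested. Whether the clusters differed in their response was not tested either.

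The leukocytes carried the replication genes at lower levels than tumour-like cells of all states together (1832 CPM in vehicle and 2294 CPM in RP-6306). G1-like tumour-like cells alone had 1115 and 1295 CPM, which NK-like cells exceeded in both libraries and B-like cells in vehicle. Summed over the 41, CD8 T-like cells had 1046 and 1177 CPM in the vehicle and RP-6306 library, CD4 T-like cells 1035 and 1102, B-like cells 1202 and 1268, NK-like cells 1398 and 1332, and macrophage-like cells 769 and 1273. Free tumour RNA, estimated from the keratin genes Krt8, Krt18 and Krt19 with Lgals7, could carry between 3.49% and 14.7% of these sums, a larger part in the vehicle than in the RP-6306 library for each class.

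Lymphocytes and tumour-like cells differed in which genes were high. Orc3 and Orc5 were above their tumour levels in each lymphocyte class, in both libraries: Orc3 was at 54.8 and 68.4 CPM in CD8 T-like and 55.9 and 64.1 CPM in B-like cells, above the 33.7 and 37.5 CPM of tumour-like cells, and Orc5 was at 25.7 and 24.8 CPM in CD8 T-like cells, against 16.03 and 19.1 CPM. Orc4 was at 90.5 and 101 CPM in CD8 T-like cells, close to its tumour level. Orc2 was close to it in CD8 T-like cells (43.7 and 59.9 CPM) and lower in NK-like cells (35.7 and 31.5 CPM), against 45.2 and 58.4 CPM in tumour-like cells. Prim2 was highest in B-like (102 and 162 CPM) and NK-like cells (120.0 and 138 CPM). Cdt1 reached 43.9 and 52.8 CPM in B-like cells, against 23.8 and 32.7 CPM in tumour-like cells. The 5 genes with the highest S-like over G1-like ratios in tumour-like cells differed in lymphocytes. Cdc6 and Mcm10 were scarce: Cdc6 was at 2.46 and 1.71 CPM and Mcm10 at 1.31 and 0.855 CPM in CD8 T-like cells, and at 3.51 and 1.68 CPM and 3.26 and 1.40 CPM in B-like cells. Mcm5 (10.7 and 11.5 CPM), Pole (8.91 and 7.86 CPM) and Prim1 (9.29 and 8.98 CPM) were nearer to their tumour levels in B-like cells. In vehicle NK-like cells they were nearer still, at 17.8, 11.4 and 16.2 CPM, from 22, 14 and 20 UMIs. In RP-6306 NK-like cells they were at 7.27, 7.27 and 9.69 CPM, from 3, 3 and 4 UMIs, too few to rank. Mcm6 was at 131 and 121 CPM in NK-like cells, above the 75.1 and 95.1 CPM of tumour-like cells.

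**Figure D4:**
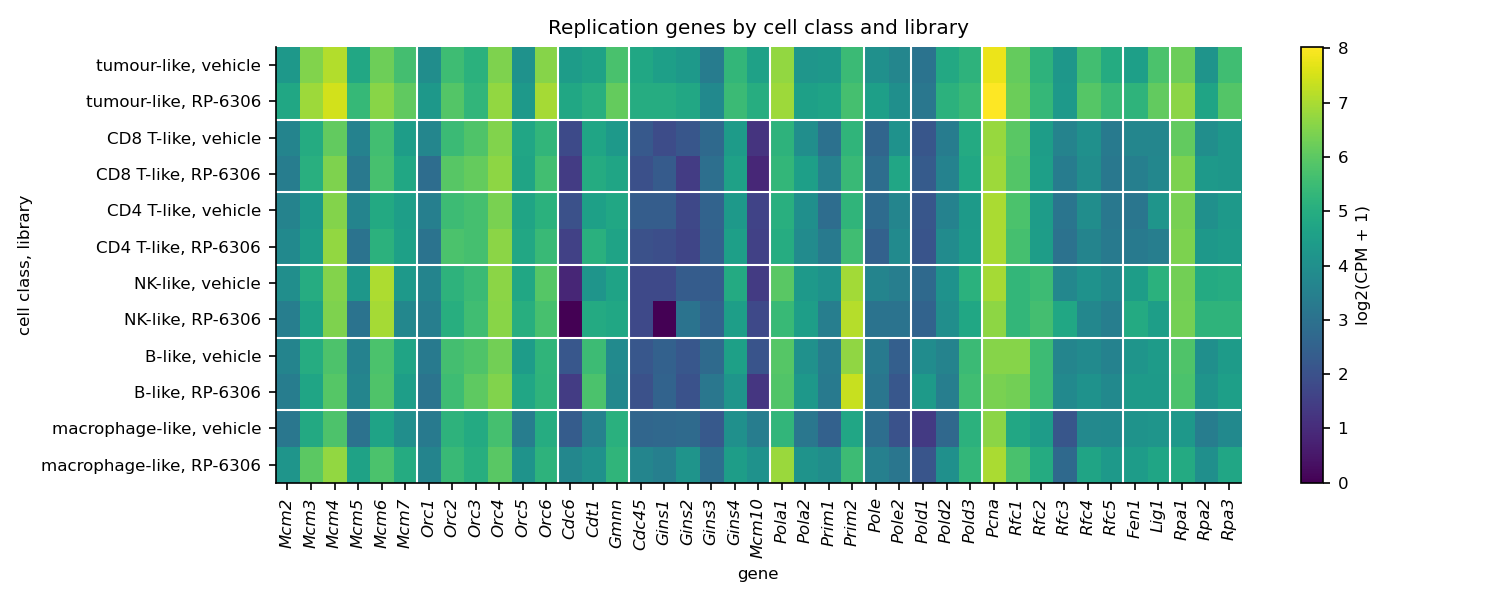
Level of each replication gene as log2 of CPM + 1 (colour) in 6 cell classes of the vehicle and RP-6306 library; white lines separate roles and classes. Orc3 and Orc5 are brighter in the lymphocyte classes than in tumour-like cells, whereas Cdc6, Cdc45, Gins1, Gins2 and Mcm10 are darker there.

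Between libraries the lymphocytes showed no common direction, with median log2 ratios of 0.14 in CD8 T-like, 0.02 in CD4 T-like, -0.01 in B-like and -0.12 in NK-like cells. In CD8 T-like cells 10 of 40 tested genes were at least 25% higher and 4 at least 20% lower in RP-6306 (background 13.2% and 13.9%), in CD4 T-like cells 2 and 8 of 41 (14.6% and 15.8%), in B-like cells 3 and 3 of 41 (9.95% and 16.5%), and in NK-like cells 3 and 10 of 31 (24.1% and 18.4%), whose 31 tested genes are those with enough UMIs. The share of higher CD8 T-like genes and the shares of lower CD4 T-like and NK-like genes stood above the background. Counting intervals lay above 0 for 8 and below 0 for 1 of the CD8 T-like genes (background 15.3% and 9.25%), for 5 and 2 of the CD4 T-like genes (14.9% and 10.3%), for 5 and 5 of the B-like genes (14.6% and 12.8%) and for 0 and 0 of the NK-like genes (7.36% and 2.65%); only the share above 0 in CD8 T-like cells exceeded its background. The B-like cells were made up differently in the 2 libraries: cluster 1 held 2285 vehicle and 1675 RP-6306 cells, and cluster 4, led by immunoglobulin genes with Cd79a and Cd74, held 895 and 1544. Of the B-like genes with an interval above 0 Prim2 had the highest log2 ratio, 0.66 (0.53 to 0.80), and in CD8 T-like cells Pole2 was higher, at 16.2 and 26.2 CPM, a log2 ratio of 0.66 (0.32 to 1.07).

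In macrophage-like cells all 41 replication genes were higher in RP-6306, as were 6451 of all 10511 tested genes. Of the 41, 34 were at least 25% higher and 0 lower by 20% or more. Among all tested genes 26.4% were that much higher and 13.3% that much lower. At 1.5-fold there were 27 (background 11.1%). The median log2 ratio was 0.70, against 0.10 for all genes, and 28 intervals lay above 0 (background 21.9%). These cells numbered 495 and 507 and held 2485 and 6038 UMIs of the 41 genes. Mcm5 was at 7.12 and 23.8 CPM in vehicle and RP-6306 cells, a log2 ratio of 1.61 (1.09 to 2.46). Pola1 was at 38.1 and 111 CPM, 1.52 (1.26 to 1.84), reaching the level of tumour-like cells. Cdc6 was at 4.02 and 12.2 CPM, 1.40 (0.72 to 2.60), and Gins2 at 5.88 and 16.9 CPM, 1.38 (0.79 to 2.33). Pcna was at 99.01 and 128 CPM, 0.37 (0.17 to 0.57). By role, all 6 MCM genes had intervals above 0, whereas of the origin recognition genes Orc4 (49.2 and 61.2 CPM) and Orc5 (9.59 and 16.2 CPM) did and Orc1, Orc2, Orc3 and Orc6 did not. The order of the genes was not that of tumour-like cells: Fen1, highest in ratio there, was at 16.4 and 20.5 CPM in macrophage-like cells, 0.30 (-0.18 to 0.83), and Gmnn at 32.8 and 37.3 CPM, 0.18 (-0.17 to 0.55).

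The macrophage-like cells also differed in make-up. Their macrophage markers (Csf1r, the C1q genes, Adgre1 and Mrc1) summed to 1972 CPM in vehicle and 3714 CPM in RP-6306 cells, with 0 of 6 at 0 in either, monocyte markers to 2446 and 2264, and tumour markers to 70.2 and 73.4, with 2 of 8 at 0. Of the tumour markers, those that tumour-like cells mainly express (Krt8, Krt18, Krt19 and Lgals7) summed to 39.0 and 24.3 CPM. Median depth was 5721 and 7693 UMIs. A sub-cluster led by Mki67 and Top2a, genes of dividing cells, held 13 vehicle cells (2.63% of the class, 1.41 to 4.45) and 37 RP-6306 cells (7.30%, 5.19 to 9.92), with 2405 and 3392 CPM of the replication genes and 22.1% and 33.7% of the class's UMIs of these genes. Without it the summed level was 644 and 966 CPM, 37 of 40 tested genes were higher in RP-6306 and 28 by at least 25% (background 25%). The median log2 ratio of all tested genes was 0.08 there. States called as for tumour-like cells differed in size of difference. The summed level was 580 and 662 CPM in G1-like, 911 and 1966 CPM in S-like, and 1175 and 1514 CPM in G2/M-like macrophage-like cells. Median log2 ratios over 29, 39 and 27 tested genes of the 41 were 0.27, 1.06 and 0.40, against 0.08, 0.11 and 0.14 for all tested genes. The difference was thus largest in S-like cells and small in G1-like cells. With the mix of sub-clusters held equal 26 genes passed 25% and the median log2 ratio was 0.50. No share of all genes is given for that equal mix. Another sub-cluster was led by T and B cell genes, and leaving it out as well gave 28 genes (background 25.1%). Sub-clusters M1 (536 and 847 CPM, 46 and 106 cells) and M8, led by Cd209a and Ccl17 (637 and 1644 CPM, 14 and 32 cells), were higher in RP-6306 beyond their intervals, and so were M10 (711 and 1183 CPM), M11, the one led by T and B cell genes (923 and 1553 CPM), and M12 (895 and 1361 CPM), of at most 29 cells in a library. The 25 cells of each library with the most UMIs of the 41 genes held 35.9% and 38.2% of them. The part of marker make-up, depth and remaining doublets in the difference was not tested.

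**Figure D5:**
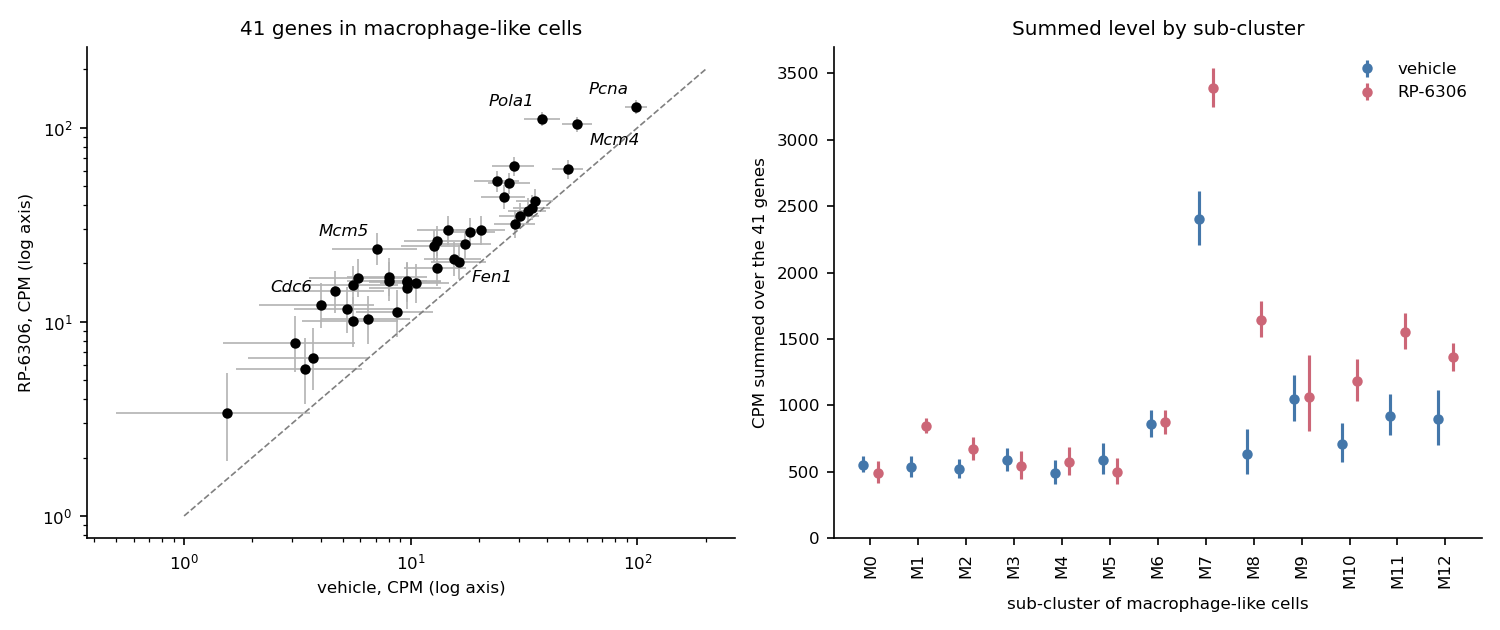
Left, level of each replication gene in macrophage-like cells of the vehicle (x) and RP-6306 (y) library, in CPM on log axes with exact Poisson 95% intervals; the dashed line marks equal levels and all 41 points lie above it. Right, CPM summed over the 41 genes in each sub-cluster, where M7 is led by Mki67 and Top2a and stands at 2405 and 3392 CPM, and M0, M2, M3, M4, M5, M6 and M9 have overlapping intervals.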

How the data were processed

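Droplet 3' single-cell libraries of 1 vehicle and 1 RP-6306 tumour sample were used. The authors deposited unnormalized counts, that is whole UMIs of each gene in each barcode. Cell Ranger 2.1.1 and build mm10 are named, per the submitters' processing notes, with no role; the calling of barcodes as cells is not given in these sources. The matrices held 135415063 (vehicle) and 158073632 (RP-6306) UMIs over 17313 and 15909 barcodes.

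From these, with Python 3.11.15, scanpy 1.11.5, scipy 1.17.1 and leidenalg 0.10.2, cells with at least 500 UMIs, 300 genes and at most 15% mitochondrial UMIs were kept. Scrublet's automatic threshold called 1 and 0 doublets, and the highest 6% of its scores in either library were therefore taken out (1069 and 1025 barcodes); other doublets remain. Both libraries were clustered together (2000 variable genes, among them Prim2 alone of the 41, 30 components, 15 neighbours, Leiden resolution 1) and named from fixed markers; the naming rule was revised once after its first output. Clusters of mixed lineage or low UMIs stayed unnamed, and classes needed 50 cells per library. CPM come from UMIs summed over the cells of a class in a library, and ratios are log2 of CPM + 1 for genes with at least 20 UMIs. Poisson, conditional binomial and Clopper-Pearson 95% intervals cover counting error only. The ratio step was tested on simulated data. The 41 genes and all lists were chosen with earlier results of these data known. All 41 may be named; values in full go to the highest and lowest ratio of each role and to a fixed set, and other replication genes to the 4 highest and 4 lowest. Exons of 13 of the 41 overlap another listed gene on the opposite strand, and no source used here states whether counting used strand.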

Additional observations from a re-analysis of the deposited data

Results flagged for a closer look

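The following 10 results went in opposite directions in groups that share a contrast. None of these differences was tested, and each rests on 1 library per treatment. Intervals below 0 were no more common among the 41 genes than among all genes. They were 1 of 40 in CD8 T-like, 2 of 41 in CD4 T-like and 5 of 41 in B-like cells (background 9.25%, 10.3% and 12.8%). In S-like and G2/M-like tumour-like cells they were 2 and 1 of 41 (15.1% and 17.2%). In tumour-like cells all were higher in RP-6306. In CD8 T-like cells Orc1 was lower, with a log2 ratio of -0.82 against 0.35 in tumour-like cells. In CD4 T-like cells Mcm5 (-0.55 against 0.58) and Lig1 (-0.73 against 0.33) were lower. In B-like cells Cdc6 (-0.75), Gins4 (-0.38), Mcm10 (-0.83), Pcna (-0.17) and Rfc1 (-0.25) were lower, against 0.37, 0.15, 0.39, 0.24 and 0.09. There Cdc6 rested on 28 and 12 UMIs in vehicle and RP-6306 cells, and Mcm10 on 26 and 10. In B-like cells the estimated free tumour RNA stood at 9.67% of the tumour level in vehicle and 4.92% in RP-6306, and for Cdc6 this would carry 1.98 of 3.51 CPM in vehicle; its part in these differences was not tested. Within tumour-like cells Pola1 was lower in RP-6306 in S-like (-0.24) and G2/M-like (-0.21) cells and higher in G1-like cells (0.15).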

How the results depend on the processing

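In tumour-like cells the count of 27 genes at least 25% higher became 13, and the median log2 ratio of 0.35 became 0.28, with 10 CPM added in place of 1. It was 20 with each cell thinned to 2000 UMIs, 26 with a mean over cells or with median-of-ratios size factors, and 27 under the other planned settings (100 UMIs or no filter on low counts, 1000 UMIs per cell, doublets kept, clustering without the 41 genes, the low-UMI cluster added, the highest cell of each gene left out); 0 genes were 20% lower under any of these. Thinning put Gins3 at -0.013 in place of 0.45, and the cause was not tested. With states held equal, 2 genes and a median of 0.15 became 1 gene with states called without thinning, 0 genes and 0.066 with Leiden clusters of the tumour-like cells as states, 3 genes with the 3 tumour clusters as states, and 12 genes and 0.27 with histone grades; the last 2, and all alternatives for macrophage-like cells, were chosen after seeing the data. In macrophage-like cells 22 of the 34 genes were left when 100 UMIs were required, since fewer genes were tested. The other alternatives there gave 26 to 35. Counts under alternative settings are given here without the share of all genes, so they show only how the counts move. Subtracting free tumour RNA gave summed levels, for vehicle and RP-6306, of 913 and 1090.1 CPM in CD8 T-like, 889 and 1005 in CD4 T-like, 1285 and 1248 in NK-like, 1025 and 1155 in B-like, and 707 and 1229 in macrophage-like cells. The median share of tumour-like cells with a UMI of a gene was 5.33% (vehicle) and 7.13% (RP-6306) at 2000 UMIs and 45.7% and 56.6% unthinned, so depth sets these shares. No paired analysis was possible because each group has 1 library. Leaving out a replicate was not possible for the same reason, and values of genes with few UMIs in NK-like and macrophage-like cells are limited by depth.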

Other observations

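Cells outside the named classes held the highest levels of the replication genes. Cluster 22, led by Jchain and Mzb1, genes of antibody-secreting cells, had 37 cells in the vehicle library with 4428 CPM (4169.8 to 4699) summed over the 41 genes, above the 3637 CPM of S-like tumour-like cells of that library; 10 cells of it were in the RP-6306 library. Cluster 19, led by Hist1h2ak, C1qb and Mrc1 with tumour and macrophage markers together, had 97 RP-6306 and 2 vehicle cells, and 2979 CPM in RP-6306. Among T cell clusters, cluster 11, led by Ctla4, Il2ra and Gzmb, had 1434 and 1591 CPM, above the 1017 and 1116 CPM of cluster 9, led by Ly6c2 and Ccl5. Cluster 16, a further T cell cluster of 134 and 79 cells, had 1492 and 1455 CPM, with intervals that overlapped those of cluster 11. The low-UMI cluster 7, with tumour markers, had 1712 vehicle and 249 RP-6306 cells and 1270.4 and 2217 CPM.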
